A study of Mus musculus with 6 samples.

Results

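A set of 10 genes of iron-recycling and tissue-resident macrophages were described across 6 RNA-seq libraries of glomeruli, the filtering units of the kidney, isolated from mice. The set holds Spic, Slc40a1, Hmox1, Cd5l, Vsig4, Fcna, Cd163, Axl, Timd4 and Folr2, that is 10 of the 52636 genes in each count table, found by their symbol in GENCODE M21 (mouse build GRCm38). All 10 were found. They were picked with the difference between old and young glomeruli in these same libraries already known, so their levels in the 2 age groups are given as a description, without a test.

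The study set 3 libraries labelled young against 3 labelled aged. Neither group was treated, the cell type is given as whole tissue, and the labels name no strain, sex, genotype or age in weeks. Per the labels' protocols, animals were perfused with magnetic beads, the kidneys were digested enzymatically, and the bead-filled glomeruli were pulled out with a magnet and lysed, so every cell caught with a glomerulus adds to the RNA. In such bulk samples a different number of cells of a type and a different amount of RNA per cell cannot be told apart. Nothing in the labels says that the libraries of a group came from separate animals, so the tests below measure only the spread between these libraries.

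Macrophages of the splenic red pulp and the liver take up worn-out red cells and return their iron to the blood. Haem induces the transcription factor Spi-C (Spic), haem oxygenase 1 (Hmox1) opens the haem ring, and ferroportin (Slc40a1) exports the freed iron. CD163 takes up haemoglobin bound to haptoglobin, and the other members are receptors or secreted proteins of resident macrophages that handle complement, dying cells, microbial sugars or folate. In the kidney, resident macrophages lie mainly between the tubules and few lie in a healthy glomerular tuft.

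Each library held between 21162919 and 26791412 gene counts. Levels are given in CPM, the count over the TMM-scaled library size, in the usual scaling of that unit. Podocyte markers were abundant in every library, and all 9 fell: they summed to between 31052 and 35255 CPM in young and between 11930 and 15818 CPM in aged libraries. The 18 pan-macrophage markers held 0.0605% to 0.0746% of the counts in young and 0.286% to 0.455% in aged libraries. All 12 proximal tubule markers rose as well (median log2 fold change 2.06), from between 1610 and 3360 to between 6108 and 9141 CPM in sum, and their part in the results below was not tested.

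**Figure D1:**
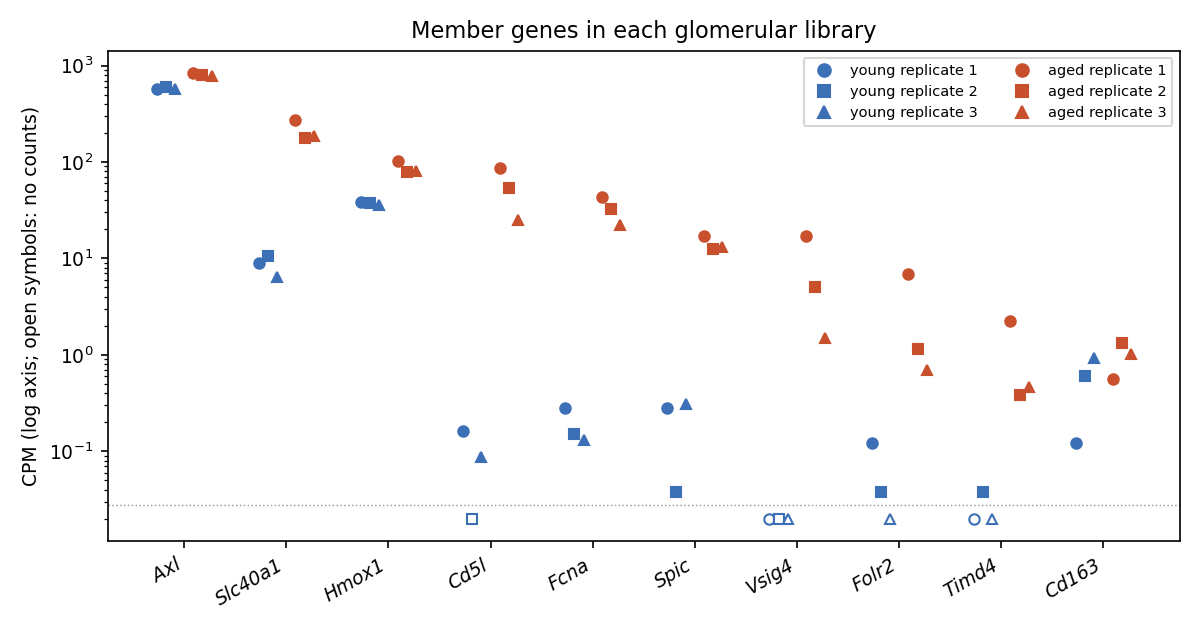
CPM of each member (log axis) in the 3 young (blue) and 3 aged (red) libraries, with 1 symbol shape per replicate and open symbols under the dotted line for libraries without a count. Aged libraries lie above young libraries for every member but Cd163, and the aged symbols spread widely for Vsig4, Folr2 and Timd4.

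Spic (ENSMUSG00000004359; chromosome 10, 88674772 to 88685015, minus strand) encodes the transcription factor that red pulp macrophages depend on. It held 0.284, 0.0376 and 0.306 CPM in young replicates 1 to 3, which is 7, 1 and 7 counts, and 17.0, 12.7 and 13.03 CPM in aged replicates 1 to 3. The groups did not overlap, and the aged libraries were close to each other. The ratio of pooled aged to pooled young counts was 70.1, with a 95% exact interval of 42.3 to 125.8 that covers counting error only.

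Slc40a1 (ENSMUSG00000025993; chromosome 1, 45908068 to 45926523, minus strand), the iron exporter, held 8.87, 10.6 and 6.37 CPM in the young and 271.7, 178.7 and 186.9 CPM in the aged libraries. The groups lay far apart, and aged replicate 1 stood above the other aged libraries. On the log2 scale the fitted difference was 4.62 ± 0.22 (SE, 3 libraries per group), or 24.6-fold.

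Hmox1 (ENSMUSG00000005413; chromosome 8, 75093621 to 75100589, plus strand) differed from both in its young level, which was already 38.6, 37.6 and 35.5 CPM. It held 102.6, 78.8 and 81.3 CPM in the aged libraries, a fitted difference of 1.23 ± 0.11 on the log2 scale (SE). The 3 genes of the haem-to-iron route thus all lay higher in each aged library than in any young library, by 2.35-fold for the enzyme and by far more for the factor and the exporter. Aged replicate 1 was the highest of the aged libraries for all 3 of them.

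Cd163 (ENSMUSG00000008845; chromosome 6, 124304656 to 124330527, plus strand), the haemoglobin receptor, did not follow them. It held 3, 16 and 21 counts in young replicates 1 to 3 and 13, 35 and 22 counts in aged replicates 1 to 3, which is 0.122, 0.602 and 0.916 CPM against 0.566, 1.33 and 1.03 CPM. The groups overlapped, since aged replicate 1 lay below young replicates 2 and 3. Its fitted log2 fold change of 0.85 ± 0.57 (SE) lay between 0.37 and 1.38 on leaving out single libraries.

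A further 3 members encode secreted or surface proteins of resident macrophages. Cd5l (ENSMUSG00000015854; chromosome 3, 87357881 to 87371073, plus strand), a scavenger-receptor family protein that resident macrophages secrete, held 0.162, 0 and 0.0873 CPM in young and 85.9, 54.3 and 24.9 CPM in aged libraries. Fcna (ENSMUSG00000026938; chromosome 2, 25624666 to 25628030, minus strand), the sugar-binding lectin ficolin A, held 0.284, 0.151 and 0.131 CPM in young and 43.3, 32.8 and 22.3 CPM in aged libraries. Both were highest in aged replicate 1 and lowest in aged replicate 3, and for both the lowest aged library was far above the highest young one. Vsig4 (ENSMUSG00000044206; chromosome X, 96247203 to 96293438, minus strand), a complement receptor of resident macrophages, had no count in any young library and 394, 134 and 32 counts in aged replicates 1 to 3, or 17.2, 5.09 and 1.50 CPM. Set against a floor of 3 counts per young library, its aged mean was at least 65.0-fold higher. The mean of 7.91 CPM was 3.29 CPM without aged replicate 1. Fcna overlaps Fcnaos on the opposite strand, which held at most 2 counts in a library.

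The other members are receptors. Axl (ENSMUSG00000002602; chromosome 7, 25757273 to 25788705, minus strand) is a receptor tyrosine kinase that senses dying cells through bridging proteins and is not limited to macrophages. It held 570.8, 602.9 and 575.2 CPM in young and 838.8, 798.5 and 782.7 CPM in aged libraries. The groups did not overlap, although the fitted difference was only 1.38-fold. Timd4 (ENSMUSG00000055546; chromosome 11, 46810800 to 46844332, plus strand), a receptor for phosphatidylserine on dying cells, had 1 count in all young libraries together and 51, 10 and 10 counts in aged replicates 1 to 3. Its pooled ratio of 74.5 had a 95% exact interval of 12.9 to 2983, and its aged mean of 1.02 CPM was 0.423 CPM without aged replicate 1. Folr2 (ENSMUSG00000032725; chromosome 7, 101839988 to 101857194, minus strand), folate receptor beta, had 3, 1 and 0 counts in young and 159, 30 and 15 counts in aged libraries. Its pooled ratio was 53.5 (95% exact interval 20.6 to 198.2), and its aged mean of 2.92 CPM was 0.920 CPM without aged replicate 1. Timd4 and Folr2 thus lay above the young libraries in all 3 aged libraries, but most of their aged counts came from aged replicate 1. Folr2 overlaps Gm10602, with 4 to 9 counts per library, and Gm45319, with none, both on the opposite strand.

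Among the 10 members, 9 had counts enough to enter the fit across 15721 genes, and Timd4 did not. Of the 9, 8 were past an edgeR adjusted p of 0.05 in the higher direction and none in the lower direction, where 23.7% of all genes tested were higher, 16.3% lower and 40.1% either. All 3 aged libraries lay above all 3 young libraries for 9 of the 10 members and for 28.7% of all genes tested. The members were chosen on this contrast, so these counts say nothing further about them. The fitted log2 fold changes ran from 0.47 for Axl to 9.32 for Cd5l, leaving aside Vsig4, whose fitted value depends on the prior count.

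Per kilobase of exon union, which allows genes to be compared, the members spanned about 3 orders of magnitude in the aged libraries. Axl was highest at 160.3 ± 5.75 CPM per kb, followed by Hmox1 at 50 ± 7.48, Cd5l at 27.0 ± 15.0, Fcna at 23.9 ± 7.63 and Slc40a1 at 23.6 ± 5.72 (SD, n = 3). Cd5l, Fcna and Slc40a1 did not differ beyond their spread. Vsig4 at 5.33 ± 5.53, Spic at 3.71 ± 0.623 and Folr2 at 1.89 ± 2.25 CPM per kb overlapped too, and Timd4 at 0.471 ± 0.478 and Cd163 at 0.178 ± 0.0703 were lowest. The place of Slc40a1 depends on the length used, since its level was 54.1 CPM per kb of its longest transcript, close to the 55.8 of Hmox1 on that scale. In the young libraries Axl held 115.8 ± 3.46, Hmox1 21.3 ± 0.888 and Slc40a1 0.956 ± 0.235 CPM per kb of exon union (2.19 per kb of longest transcript for Slc40a1), and the other members lay at or below 0.137.

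The aged libraries agreed to very different degrees from member to member. The highest over the lowest aged CPM was 1.07 for Axl, 1.30 for Hmox1, 1.34 for Spic, 1.52 for Slc40a1 and 1.94 for Fcna. It was 2.35 for Cd163, 3.46 for Cd5l, 5.85 for Timd4, 9.88 for Folr2 and 11.5 for Vsig4, and the 95% exact counting interval of the last was 8.0 to 17.0. A ratio above 2 was thus seen in 5 of 10 members, against 6.61% of all genes tested, 4.93% of the genes called higher in aged libraries, 4 of the 17 other resident-macrophage genes tested (up to 4.28) and none of the 17 pan-macrophage markers tested. Over all genes tested the median ratio was 1.20, and over the pan-macrophage markers it was 1.56, with a range of 1.24 to 1.79. The counting intervals, which leave out the spread between samples, were 3.14 to 3.81 for Cd5l, 5.82 to 18.1 for Folr2, 2.94 to 12.9 for Timd4 and 1.21 to 4.83 for Cd163, the last of which overlaps the marker range.

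Aged replicate 1 was the highest aged library for 9 of 10 members, all but Cd163. The same library was highest for 36.4% of all genes tested, for 54.1% of those called higher in aged libraries, for 10 of the 17 other resident-macrophage genes and for 16 of the 17 pan-macrophage markers. Aged replicate 3 was the lowest for 5 members (Cd5l, Vsig4, Fcna, Axl and Folr2) for 36.2% of all genes tested, for 51.2% of those called higher in aged libraries, for 7 of the 17 other resident-macrophage genes and for none of the pan-macrophage markers, whose lowest aged library was replicate 2 in sum. The order of aged replicate 1, then 2, then 3 was shared by the same 5 members, by 19.7% of all genes tested, by 32.9% of those called higher in aged libraries, by 6 of the 17 other resident-macrophage genes, by 7 of the 12 proximal tubule markers and by no pan-macrophage marker. The summed pan-macrophage markers were 4591, 2850 and 3401 CPM in aged replicates 1 to 3 and 644.0, 610.2 and 746.1 CPM in young replicates 1 to 3. The proximal tubule markers followed the order 1, 2, 3 in sum, at 9141, 8790 and 6108 CPM, and aged replicate 3 was lowest for all 12 of them.

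**Figure D2:**
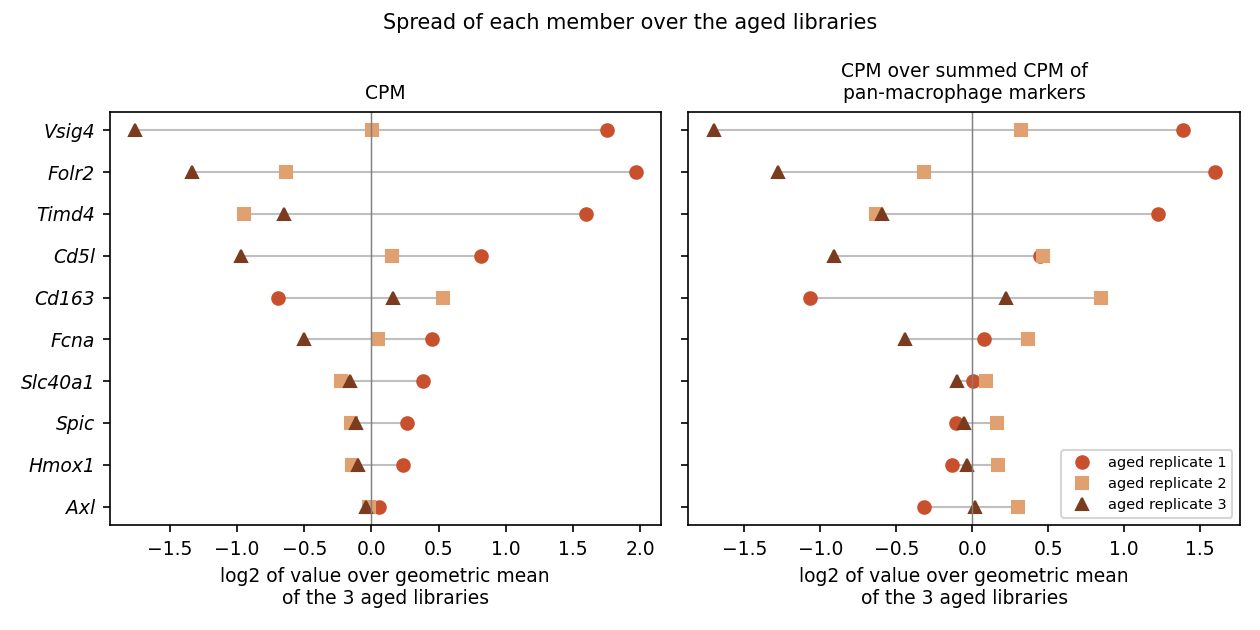
Each member's value in aged replicates 1 (red circles), 2 (light squares) and 3 (dark triangles), as log2 of the value over the geometric mean of the 3, for CPM (left) and for CPM divided by the summed CPM of the pan-macrophage markers of the same library (right). On the right Spic, Slc40a1 and Hmox1 lie closer together than on the left and Axl farther apart, while Vsig4, Folr2, Timd4 and Cd5l stay spread out.

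To set the members beside macrophage markers of the same library, each CPM was divided by the summed CPM of the 18 pan-macrophage markers and is given per 10000 marker CPM. The sum weights abundant markers most, and the markers rose unequally. Lyz2, the most abundant in young libraries at 259.8 CPM, rose 2.72-fold, while C1qa, C1qb and C1qc rose 46.3-, 56.7- and 57.7-fold. The ratios below thus depend on the divisor, since Slc40a1 rose 24.6-fold, less than these C1q genes, and Spic 68.4-fold. On this scale Spic held 37.0, 44.5 and 38.3 in aged replicates 1 to 3, and 4.41, 0.617 and 4.09 in young replicates 1 to 3. Slc40a1 held 591.8, 627.1 and 549.6 in aged and 137.8, 173.2 and 85.4 in young libraries. For these 2 genes the aged libraries nearly coincided, with a highest-to-lowest ratio of 1.20 for Spic and 1.14 for Slc40a1, and the aged mean was 13.1-fold and 4.46-fold the young mean. Fcna went from 2.88 ± 1.37 to 91.7 ± 24.9 and Cd5l from 1.23 ± 1.26 to 150.1 ± 66.8 per 10000 marker CPM (SD, n = 3).

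Vsig4 kept its spread, at 37.4, 17.9 and 4.40 per 10000 marker CPM in aged replicates 1 to 3. Folr2 held 15.1, 3.996 and 2.06, and Timd4 held 4.84, 1.33 and 1.37. Dividing by the markers thus left these 3 genes with highest-to-lowest ratios of 8.51, 7.32 and 3.63. Hmox1 and Axl reversed their order, and all aged libraries lay below all young libraries relative to the markers. Hmox1 went from 563.5 ± 76.1 to 246.3 ± 27.2 and Axl from 8818 ± 1086 to 2310 ± 487.2 per 10000 marker CPM, so neither kept pace with the sum of the markers. Both already had high young means, of 37.2 CPM for Hmox1 and 583.0 CPM for Axl. The part of cells other than macrophages in these levels was not tested, so the ratios are not levels per macrophage. Cd163 overlapped on this scale as well, with 8.01 ± 5.44 in young and 2.97 ± 1.72 in aged libraries. In all, 7 members stayed above the young libraries in every aged library. With the mean log2 CPM of the markers as the divisor 6 did, and Folr2 overlapped. The share over all genes tested was not taken on this scale. The members were chosen on this contrast, so these counts say nothing further about them.

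Relatives of the members, which the choice of members did not use, were read from the fit across all genes. Of 9 tested, 5 rose, 3 fell and Hmox2 did not pass the threshold. Their median log2 fold change was 1.77, against 0.01 for all genes tested. Fcnb, a ficolin of neutrophils and monocytes, was not tested, with at most 2 counts in a library.

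**Figure D3:**
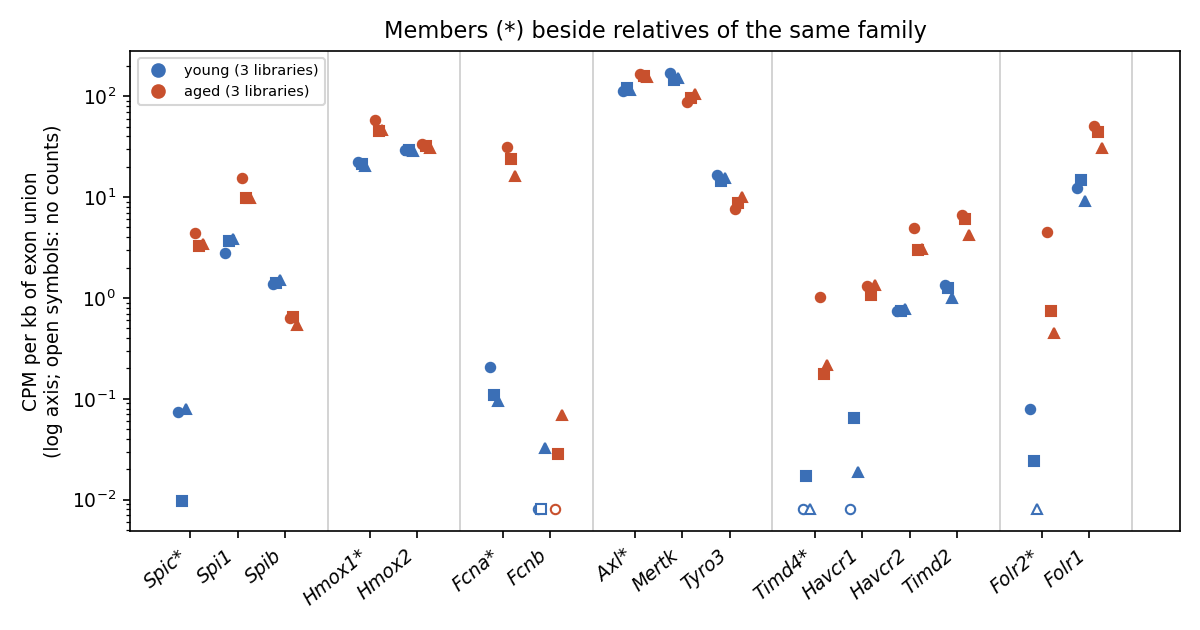
CPM per kb of exon union (log axis) of members, marked by an asterisk, and of relatives from the same family, in 3 young (blue) and 3 aged (red) libraries, with circle, square and triangle for replicates 1, 2 and 3 and open symbols for no counts. The ages lie farther apart for Spic than for Spi1, and Mertk and Tyro3 lie lower in aged libraries while Axl lies higher.

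Among the ETS factors, Spi1, which encodes the general myeloid factor PU.1, held 7.50, 9.82 and 10.4 CPM in young and 41.4, 26.7 and 26.6 CPM in aged libraries. It rose by 1.77 ± 0.20 on the log2 scale (SE; edgeR adjusted p 0.000122), with no overlap between the groups. Spib, the B cell and plasmacytoid dendritic cell relative, fell from 4.11 ± 0.228 to 1.74 ± 0.176 CPM (SD, n = 3; log2 fold change -1.23 ± 0.19, edgeR adjusted p 0.000823). Hmox2, the constitutive haem oxygenase, held 64.5 ± 0.337 CPM in young and 70.9 ± 3.75 CPM in aged libraries (log2 fold change 0.14 ± 0.07, edgeR adjusted p 0.136). Per kilobase Hmox2 lay above Hmox1 in the young libraries, at 29.1 ± 0.152 against 21.3 ± 0.888 CPM per kb, and below it in the aged ones, at 32.0 ± 1.69 against 50 ± 7.48. Hmox2 overlaps Gm15859 on its own strand and Cdip1 on the other.

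The other kinases of the Axl family went the other way. Mertk held 743.5, 626.5 and 651.1 CPM in young and 382.1, 415.8 and 455.6 CPM in aged libraries, and fell by 0.69 on the log2 scale (SE 0.09; edgeR adjusted p 0.000382). Tyro3 fell from 95.8 ± 7.33 to 54.5 ± 7.597 CPM (SD, n = 3; log2 fold change -0.81 ± 0.11, edgeR adjusted p 0.000277). The podocyte markers, all 9 of which fell, moved with them, with a median log2 fold change of -1.31, and their part in the falls was not tested. Mertk overlaps genes on both strands.

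In the family of Timd4, whose genes lie together on chromosome 11, all 3 relatives tested rose. Havcr1, the kidney injury molecule of damaged tubule cells, held 0, 4 and 1 counts in young and 69, 65 and 67 counts in aged libraries (log2 fold change 5.31 ± 0.52, edgeR adjusted p 6.33e-05). Without young replicate 2 its log2 fold change was 6.76. Unlike those of Timd4, its aged libraries were close to each other, at 3.01, 2.47 and 3.13 CPM. Havcr2, an inhibitory receptor of T cells and myeloid cells, rose by 2.28 ± 0.23 (edgeR adjusted p 7.08e-05) and Timd2 by 2.22 ± 0.19 (edgeR adjusted p 3.34e-05). Folr1, the folate receptor of proximal tubule cells, is the neighbour of Folr2 on chromosome 7 and rose from 27.9 ± 6.65 to 95.4 ± 23.3 CPM (SD, n = 3; log2 fold change 1.77 ± 0.21, edgeR adjusted p 0.000157). Its aged values of 115.3, 100.9 and 69.8 CPM differed far less than those of Folr2.

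The rest of the iron and haem system was read from a list of 36 genes, 35 of which were found and 32 tested. Of these 19 rose, 4 fell and 9 did not pass the threshold, with a median log2 fold change of 0.57 against 0.01 over all genes tested. Storage genes were among those that rose, while uptake genes went both ways, with the transferrin receptor Tfrc among those that fell. Slc11a1, the NRAMP1 metal transporter of phagosomes, rose from 5.16 ± 0.479 to 65.3 ± 19.8 CPM (SD, n = 3; log2 fold change 3.66 ± 0.21, edgeR adjusted p 6.59e-06), and its aged values of 88.1, 52.4 and 55.4 CPM had aged replicate 1 highest, as for Slc40a1. Lcn2, which binds bacterial iron carriers and marks stressed tubules, rose by 4.27 ± 0.24 (edgeR adjusted p 6.59e-06), with aged replicate 3 highest at 16.4 CPM. Cp, the ferroxidase that works beside ferroportin, rose from 130.8 ± 9.71 to 355.3 ± 22.0 CPM (SD, n = 3; edgeR adjusted p 6.59e-06), and the related Heph rose by 0.58 ± 0.08 (edgeR adjusted p 0.000342).

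The ferritin heavy chain gene Fth1 held 581.6, 665.8 and 577.0 CPM in young and 1191, 1069 and 987.6 CPM in aged libraries, a rise of 0.83 ± 0.10 (SE; edgeR adjusted p 0.000146). Ftl1, the light chain, rose by 0.67 ± 0.15 (edgeR adjusted p 0.00609), a value that is uncertain because ferritin genes have many processed copies that could share reads. The biliverdin reductases, which act after haem oxygenase, rose as well, Blvra by 0.72 ± 0.15 (edgeR adjusted p 0.00486) and Blvrb by 0.58 ± 0.13 (edgeR adjusted p 0.00653). Genes that fell were Steap4 (-1.64 ± 0.14) and Steap3 (-0.76 ± 0.09), which reduce iron, the haem transporter Slc48a1 (-0.33 ± 0.07) and the transferrin receptor Tfrc (-0.44 ± 0.11). Their edgeR adjusted p-values were 2.88e-05, 0.000131, 0.00450 and 0.0133. Hamp, the hormone hepcidin that degrades ferroportin, had 1 count in all 6 libraries together.

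**Figure D4:**
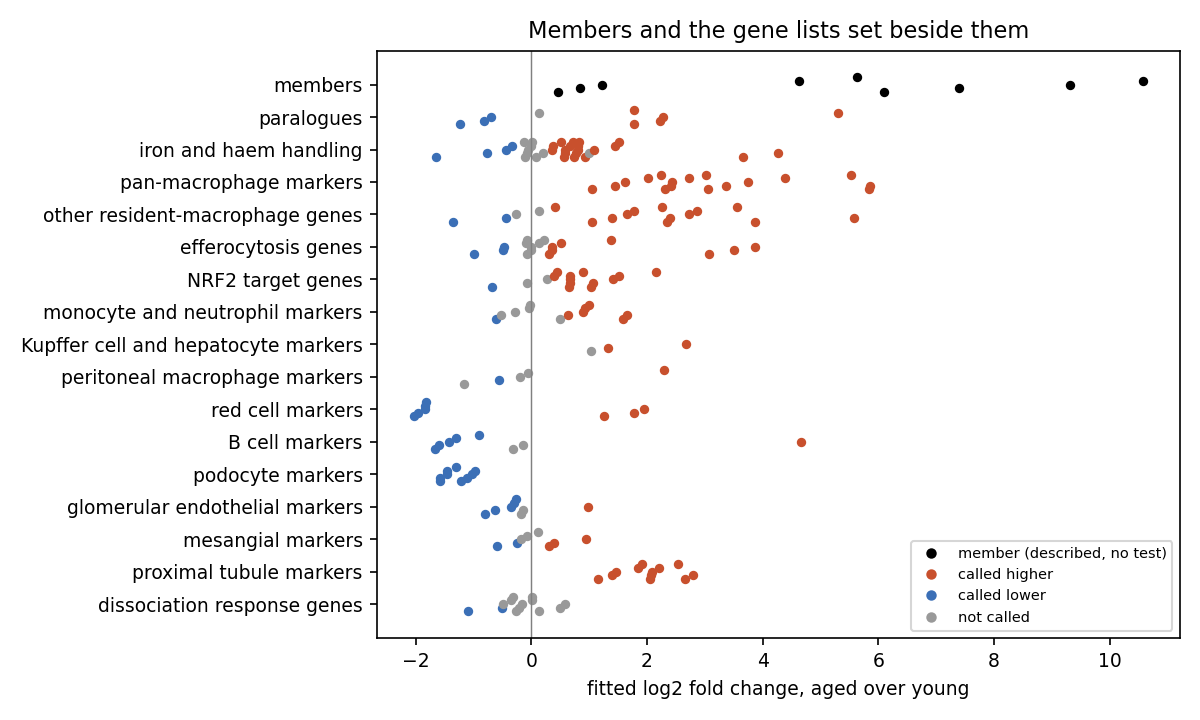
Fitted log2 fold change, aged over young, of the members tested (black) and of the genes of each list that were tested (red, called higher at an edgeR adjusted p under 0.05; blue, called lower; grey, not called). Vertical offsets within a list carry no meaning, and the right-most member, Vsig4, has no count in young libraries.

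Macrophage genes in general were higher in the aged libraries. All 17 pan-macrophage markers tested rose, with a median log2 fold change of 2.73, and Itgam, which Gm49368 overlaps on its own strand, was listed at 0 in all 6 libraries. The complement genes C1qb, C1qc and C1qa had the smallest p-values, and C1qb rose from 4.90 ± 0.656 to 278.7 ± 64.9 CPM (SD, n = 3; log2 fold change 5.83 ± 0.19, edgeR adjusted p 5.65e-07). For comparison, the fitted log2 fold change was 6.10 ± 0.35 for Spic, within the errors of C1qc (5.85 ± 0.24), the marker that rose most. Cd5l (9.32 ± 0.71) and Fcna (7.40 ± 0.37) lay above C1qc, and Vsig4 had no young count to compare. Folr2 held 5.63 ± 1.21 and Slc40a1 4.62 ± 0.22, while Hmox1, Cd163 and Axl lay between 0.47 and 1.23. Among 17 other genes of resident macrophages tested, 13 rose and 2 fell. Apoe, a lipid carrier, held 117.6, 140.0 and 148.6 CPM in young and 1178, 902.0 and 897.7 CPM in aged libraries (log2 fold change 2.87 ± 0.14, edgeR adjusted p 4.66e-06), and Hpgd, which breaks down prostaglandins, and the factor Maf rose by 2.72 ± 0.14 and 1.40 ± 0.08 (edgeR adjusted p 6.23e-06 and 6.96e-06). The vessel-associated macrophage marker Lyve1 did not pass (-0.26 ± 0.37, edgeR adjusted p 0.612). Id3, an inhibitor of basic helix-loop-helix factors, fell by 0.44 on the log2 scale (edgeR adjusted p 0.0152), but it missed the threshold without aged replicate 1 (edgeR adjusted p 0.0555).

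Genes for the uptake of dying cells were mixed, with 8 of 18 tested higher and 3 lower. The scavenger receptor Msr1 rose by 3.51 ± 0.21 and Stab2, a clearance receptor of sinusoidal endothelium, by 3.08 ± 0.24, while the nuclear receptor Pparg rose by 1.38 ± 0.10 (edgeR adjusted p 7.81e-06, 2.05e-05 and 1.33e-05). The integrin genes Itgb5 (-0.99 ± 0.10) and Itgav (-0.48 ± 0.10) and the engulfment adaptor Elmo1 (-0.49 ± 0.09) fell (edgeR adjusted p 7.05e-05, 0.00527 and 0.00251). Targets of NRF2, the oxidant-response factor that also drives Hmox1, rose in 12 of 15 cases and fell in 1, with a median log2 fold change of 0.67. Gclc, which makes glutathione, held 67.8, 62.4 and 61.0 CPM in young and 120.4, 116.7 and 119.0 CPM in aged libraries (log2 fold change 0.90 ± 0.07, edgeR adjusted p 1.77e-05). Osgin1 rose by 2.16 ± 0.22 and Txnrd1 by 0.67 ± 0.07 (edgeR adjusted p 7.25e-05 for each), and Gsta4 fell by 0.68 (edgeR adjusted p 9.53e-05). NRF2's own gene, Nfe2l2, rose by 0.52 ± 0.07 (edgeR adjusted p 0.000277). Bach1, from the iron and haem list as well, rose by 0.35 ± 0.09 (edgeR adjusted p 0.0121). The part of either factor in the level of Hmox1 was not tested.

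Markers of other cells that carry these genes, or red cells that feed the route, were examined too. Of the 8 Kupffer cell and hepatocyte markers, whose sum was 6.28 to 14.8 CPM in young and 19.7 to 35.8 CPM in aged libraries, 3 were tested and 2 rose, Clec1b (2.68 ± 0.33, edgeR adjusted p 0.000191) and Alb (1.32 ± 0.27, edgeR adjusted p 0.00391). Clec4f, the defining Kupffer cell marker, had 13 counts in aged replicate 1 and 0 in each of the other libraries. Clec1b was also highest in aged replicate 1, at 15.1 CPM against 6.80 and 7.52 CPM in aged replicates 2 and 3. The other markers of the list, all hepatocyte genes, were not highest in that library. Of these, Alb held 4.18, 4.71 and 2.71 CPM in aged replicates 1 to 3. Aged replicate 1 was also the highest aged library for 16 of the 17 pan-macrophage markers tested. The part of liver-type macrophages in the members' levels was not tested. Clec1b overlaps Clec9a on its own strand. Of 5 peritoneal macrophage markers tested, Selp rose and Icam2, which endothelium expresses, fell, and the list summed to 209.8 to 255.6 CPM in young and 154.8 to 171.7 CPM in aged libraries. Without young replicate 2, 2 of them fell. Their defining factor Gata6 had 11 to 62 counts in every library (edgeR adjusted p 0.170).

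Red cell RNA was lower in the aged libraries. Hbb-bs held 136.4, 182.4 and 301.2 CPM in young and 54.9, 64.7 and 53.4 CPM in aged libraries, a log2 fold change of -1.84 ± 0.25 (edgeR adjusted p 0.000331), and Hbb-bt (-2.03) and Alas2 (-1.82) fell too (edgeR adjusted p 0.000353 and 0.000532). Near-identical globin copies can share reads. Of the 8 red cell markers tested, 5 fell and 3 rose, the latter being Slc4a1, which kidney collecting duct cells also express, Epor and Tmem56. Among 12 monocyte and neutrophil markers tested 6 rose and 1 fell, with Vcan, Ccr2 and F10 having the smallest p-values among those that rose, and 2 fell without aged replicate 1. B cell markers were lower in 5 of 8 cases and Jchain, which plasma cells express, rose. Glomerular endothelial markers fell in 5 of 8 cases and rose in 1, and mesangial markers rose in 3 of 8 cases and fell in 2. Of 13 dissociation response genes, which tissue digestion can induce, edgeR called 0 higher (1 at an unadjusted p under 0.05) and 2 lower (Fosb and Jun), while DESeq2 called 1 higher, and edgeR called 2 higher without young replicate 3. Jun missed the threshold without young replicate 3 (edgeR adjusted p 0.115), aged replicate 1 (0.140) or aged replicate 2 (0.106). Summed over each list, the ages did not overlap for 13 of 15 lists. The two-sided exact permutation p of each of these 13 sums was 0.1, the smallest that 3 against 3 libraries allow, and 0.115 after Benjamini-Hochberg adjustment over the 15 lists.

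Genes most like the members were sought by Pearson's r, over the 6 libraries, between a gene's log2 CPM and the mean of the members' scaled log2 CPM. The 8 highest among 12099 candidates were Ppfia4 (0.9996), Aph1c (0.9995), Bank1 (0.9995), Fgd2 (0.9995), Cxcl16 (0.9993), Pitrm1 (0.9991), Cys1 (0.9990) and Itpripl1 (0.9989). Cxcl16, a chemokine that also takes up oxidised lipid, held 32.6, 35.5 and 34.1 CPM in young and 118.1, 92.4 and 87.9 CPM in aged libraries. All 8 had aged replicate 1 highest and aged replicate 3 lowest, but choosing genes by likeness favours the members' own order, so this is no separate result. The 6 points share 1 split by age, and 186 candidates had an r above 0.99, so the list is a description.

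Promoter windows are shown for 4 members whose age groups lay far apart, to set their letters side by side. RefSeq windows of 300 bases, from 250 before to 50 after a transcript start (GRCm38.p6), were found for 8 members in 9 windows. The windows of Spic, Cd5l, Vsig4 and Fcna are printed 5′ to 3′ on the gene's strand, with GAGGAA, the core that PU.1 and Spi-C bind, or its reverse complement in capitals.
Spic: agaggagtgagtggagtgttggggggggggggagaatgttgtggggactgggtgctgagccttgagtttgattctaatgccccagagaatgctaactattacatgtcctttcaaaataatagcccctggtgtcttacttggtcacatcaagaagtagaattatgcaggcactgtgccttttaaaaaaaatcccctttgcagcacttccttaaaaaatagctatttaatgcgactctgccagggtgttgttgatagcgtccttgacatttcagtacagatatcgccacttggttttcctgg
Cd5l: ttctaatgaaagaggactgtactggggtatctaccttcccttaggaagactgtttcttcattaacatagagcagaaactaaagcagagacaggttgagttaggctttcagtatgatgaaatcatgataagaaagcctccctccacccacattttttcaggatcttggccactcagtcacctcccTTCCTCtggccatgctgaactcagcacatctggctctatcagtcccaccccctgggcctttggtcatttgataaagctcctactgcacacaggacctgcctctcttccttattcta
Vsig4: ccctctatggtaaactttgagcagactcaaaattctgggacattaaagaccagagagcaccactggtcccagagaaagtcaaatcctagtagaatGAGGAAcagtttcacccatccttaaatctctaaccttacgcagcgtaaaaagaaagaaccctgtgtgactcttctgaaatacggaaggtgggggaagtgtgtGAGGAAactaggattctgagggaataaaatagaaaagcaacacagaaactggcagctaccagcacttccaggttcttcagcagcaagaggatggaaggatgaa
Fcna: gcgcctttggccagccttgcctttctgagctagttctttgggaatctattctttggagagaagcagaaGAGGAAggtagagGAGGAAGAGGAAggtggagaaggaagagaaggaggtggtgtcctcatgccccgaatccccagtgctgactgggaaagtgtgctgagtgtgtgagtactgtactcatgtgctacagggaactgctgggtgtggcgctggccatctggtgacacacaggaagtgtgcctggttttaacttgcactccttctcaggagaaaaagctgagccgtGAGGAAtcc

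The Spic window (chr10:88682974-88683273, minus strand) held no match on either strand. It lies within the annotated gene and does not reach that gene's 5′ end at 88685015, which was therefore not searched. The Cd5l window (chr3:87357631-87357930, plus strand) held 1 match, on the opposite strand. The Vsig4 window (chrX:96293389-96293688, minus strand) held 2 and the Fcna window (chr2:25627925-25628224, minus strand) held 4, all on the gene's strand. Among the 8 members with a window, 4 had a match on either strand (Cd5l, Vsig4, Fcna and Axl), while 28.3% of all 32851 windows did. On the gene's strand alone 2 members had one, against 15.6% of all windows. The E-box CACGTG was in no member window (7.15% of all windows), and the NRF2 core TGACNNNGC was in 1, of Folr2 (12.4% of all windows). A match is a run of letters and no evidence of binding, and these counts rest on 8 members.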

How the data were processed

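The deposited tables, 1 for each library, give whole-number gene counts by Ensembl identifier, without normalization. Stranded poly(A) libraries were made, per the labels' protocols. Partek and GRCm38 are named in the submitters' processing notes, and the counting program, annotation and use of strand are not given in the sources used here. Symbols, positions and exon lengths came from GENCODE M21, which held 52489 of the 52636 genes.

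The counts were tested in R 4.3.3 with edgeR 4.0.16 (filterByExpr, TMM, glmQLFit and glmQLFTest, aged against young, no covariate), with p-values adjusted by the Benjamini-Hochberg method over 15721 genes and a threshold of 0.05. The SE is the absolute log2 fold change over the root of F. Single counts carry exact 95% intervals (Clopper-Pearson for ratios), which cover counting error only and leave out the spread between libraries. Where duplicated PCR reads were counted the intervals are too narrow, since such reads are not independent molecules. The fits were tried on counts simulated with the same dispersion for every gene. That setting differs from members whose aged libraries spread widely, so the simulation does not bear on their calls. Alternatives were RLE and upper-quartile factors, no filter, at least 10 counts in every library, DESeq2 1.42.0, the replicate number as a block, and each library left out. The members, the 15 gene lists and the tests were chosen with earlier results of these data known. Genes were named from all members and relatives, and from each list up to 3 genes per direction with the smallest p past the threshold, plus the 8 genes most alike with a mean of at least 50 counts. Other genes of the lists (Heph, Fth1, Ftl1, Blvra, Blvrb, Tfrc, Hamp, Lyve1, Nfe2l2, Bach1, Itgam, Clec4f and Gata6) are named for their known roles, after their values were seen. Lyz2 is named for its weight in the marker sum, also after its values were seen. A gene that the rule would name is not reported here.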

Additional observations from a re-analysis of the deposited data

How the results depend on the processing

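No fitted fold change changed direction under the alternatives run, but relative to the pan-macrophage markers Hmox1 and Axl lay below the young libraries in all aged libraries (ratios of 0.437 and 0.262). The balance of calls did change for the dissociation response genes, which had 2 higher and 1 lower without young replicate 3, against 0 and 2. With at least 10 counts required in every library, 3 members were called higher (Slc40a1, Hmox1 and Axl), because the others have young libraries below that count. Leaving out single libraries gave 8 to 9 members called higher and 1 to 2 of the other resident-macrophage genes called lower (1 without aged replicate 1). Among the marker lists, glomerular endothelial genes called lower went from 5 to 3 without young replicate 3 or aged replicate 1, mesangial genes called lower from 2 to 1 without young replicate 1, aged replicate 2 or aged replicate 3, and Kupffer cell and hepatocyte genes called higher from 2 to 4 without young replicate 2. Monocyte and neutrophil genes called lower went from 1 to 2 without aged replicate 1, peritoneal genes called lower from 1 to 2 without young replicate 2, and dissociation response genes called higher from 0 to 2 without young replicate 3. Dissociation response genes called lower went from 2 to 1 without young replicate 3, aged replicate 1 or aged replicate 2. Relative to the pan-macrophage markers, aged replicate 1 was highest for 3 members in place of 9, an alternative chosen after seeing the data. Promoter matches counted on the gene's strand alone were found in 2 members in place of 4.

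The fitted log2 fold change of Folr2 was 3.98 without aged replicate 1 and 6.84 without young replicate 1, against 5.63 with all libraries. That of Vsig4 was 9.34 without aged replicate 1, against 10.58, and that of Cd5l was 10.23 without young replicate 1 and 8.70 without young replicate 2, against 9.32. That of Havcr1 was 6.76 without young replicate 2, against 5.31, and that of Jchain 5.70 without young replicate 3, against 4.67. Libraries that share a replicate number did not deviate together (correlations of 0.0106, 0.0471 and 0.105 for numbers 1 to 3), so the numbers were not taken as pairs. With the replicate number as a block, 8 members and 3730 genes in all were called higher, against 8 and 3729 without it, and 2 dissociation response genes were called higher and 4 lower, against 0 and 2. The block moved no other list's count by over 1.5 times.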
